A study of Mus musculus with 1183 samples.

Results

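Basophils of the neonatal mouse lung are described here from the cells whose deposited subtype label is basophil, 53 of 1183 single immune cells. They were isolated from distal lung tissue of 1 female and 1 male mouse aged 7 days after birth, and both mice had lived in hyperoxia, meaning air with extra oxygen, which serves as a model of injury to the developing lung. Strain, oxygen concentration and length of exposure are not given in the sources used here, and mice in normal oxygen were not analysed here, so no effect of hyperoxia can be read from these values. The series title places the immune cells in the context of how the newborn lung responds to hyperoxia. The female gave 34 of the basophils and the male 19. Replication is by animal, not by cell, and with 1 animal of each sex the difference between animals and the difference between sexes cannot be told apart.

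Basophils are rare granulocytes that develop in the bone marrow under the transcription factor Gata2 and circulate before entering tissue. They carry the high-affinity receptor for IgE, answer interleukin 3, thymic stromal lymphopoietin and the alarmins interleukin 33 and interleukin 18, and store histamine and their own serine proteases in granules. When activated they release interleukin 4 and other cytokines, chemokines and lipid mediators, and in the developing lung they have been described as neighbours of alveolar macrophages that influence how those macrophages mature.

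All 53 basophils lay on plates filled by a CD45 sort, which selects leukocytes. Their share was 5.69% in the female (34 of 598 cells, exact 95% binomial interval 3.97 to 7.85%). In the male it was 3.25% (19 of 585 cells, 1.97 to 5.03%). By plate the share was 3.82% on the first female plate (11 basophils), 7.57% on the second (23), 3.77% on the first male plate (11) and 2.77% on the second (8). The second female plate stood highest, and the first female plate lay beside the first male plate. That first female plate was sequenced in another run (DC28) than the other plates with basophils (DC35). Counting the shared run alone, basophils made up 7.57% of female and 3.27% of male cells. The intervals cover counting error only, and a plate holds cells that passed a sort and later filters, so the share is not the share in the lung.

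Depth ran from 167945 to 3449193 reads per basophil, with a median of 1280470 in the female and 952430 in the male. Summed over cells, the basophils held 49391781 reads in the female and 19673065 in the male. Levels are given as CPM, the reads of a gene per 1000000 reads of such a sum, first for the female and then for the male. CPM is not divided by gene length, so levels are compared between cells and subtypes for the same gene and not between genes. A count of 3 reads in each sum is 0.0607 and 0.1525 CPM. For a gene with no read, that level allows for counting of reads only. It is no upper limit for the cell type, since the reads of a gene can come from few cells. A cell is counted as holding a gene when 5 or more of its reads remained in a random draw of 100000 reads from that cell.

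The labelled cells were described by 14 basophil markers, 6 of which were proposed with the cells themselves (Il6, Ccl3, Osm, Il4, Ms4a2 and Igsf6). The label was probably drawn from expression in these cells, so the marker counts describe the class and are no independent evidence for it. Each of the 14 averaged at least 20 CPM over the animals. A basophil held from 8 to 14 of them, with a median of 11, against a median of 1 in the other 1125 cells deep enough to thin. Outside the mast cells no other cell held more than 6, while 31 of 59 mast cells held 8 to 10. Defining genes of the neighbouring types were close to absent: all 5 mast cell markers (Mcpt4, Cma1, Tpsb2, Tpsab1 and Kit) and all 5 neutrophil markers (S100a8, S100a9, Ly6g, Retnlg and Csf3r) were under 1 CPM over the 2 animals. NK cell, epithelial and mesenchymal lists were also under 1 CPM throughout. Other lists had members at 20 CPM or more: 2 of 4 endothelial, 2 of 4 group 2 innate lymphoid, and 1 of 4 B cell, T cell and platelet genes each. Among the endothelial genes Cldn5 was at 18.2 and 149.4 CPM. Only 1 basophil held 3 of the endothelial genes, and 1 held 3 of the innate lymphoid genes. Whether such wells held material of a second cell was not tested. Of 2 eosinophil markers in the table, Ccr3 was at 152.96 and 87.5 CPM in 10 cells and Siglecf at 51.9 and 1.98 CPM in 6 cells. Of 9 monocyte and macrophage markers 6 were under 1 CPM, and Ccr2, the receptor that brings monocytes out of the blood, and Adgre1, which encodes F4/80, were present in 52 and 23 basophils. One cell, on the second female plate, held 109506 globin reads, 8.69% of its total. Of 41 levels recomputed without it none moved by more than 1.15-fold, and Hbb-bt, which was not among the 41, was found in no other basophil.

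Among the proposed markers, 1 was not highest in these cells. Igsf6, an immunoglobulin-family membrane receptor of myeloid cells, was at 224.98 and 250.95 CPM in basophils and was held by 16 of 53. It was at 1082 and 587 CPM in Mac V, a macrophage class of the labels, and at 702 and 478 CPM in neutrophils. Its share of cells was 30.2% in basophils and 44% in all other cells. The other 5 proposed markers were highest in basophils among the 15 subtypes compared (Mac I, with 1 cell, was left out). Of these 5, Il4 was not particular to basophils, as given below.

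Cytokine and chemokine messages took a larger share of the reads in basophils than in any of the 14 other subtypes compared. The 36 measured genes of the cytokine and chemokine lists took 5.80% of female and 8.45% of male basophil reads. These lists hold Il6, Ccl3, Osm and Il4, which were proposed with the cells themselves, so the contrast is a description. By plate the share was 5.15% and 6.16% in the female and 8.53% and 8.35% in the male. The next class was DC III, a dendritic cell class, at 1.95% and 3.28%, then Mac III at 1.58% and 1.88%, and neutrophils were at 1.16% and 1.03%. Across single basophils it ran from 2.11 to 13.1% with a median of 6.66%, so no basophil was without these messages. Most of it was 4 genes, Ccl3, Ccl4, Ccl6 and Ccl9, which together took 4.50% and 7.22%.

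**Figure D1:**
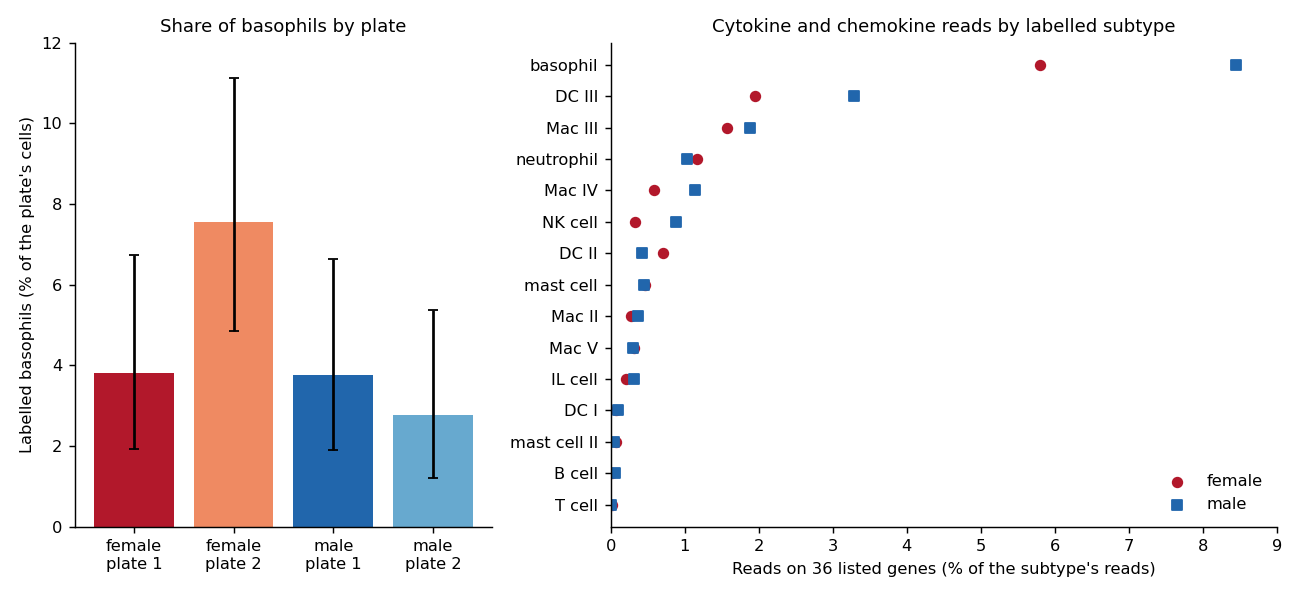
Left, labelled basophils as a percentage of the cells of each CD45 plate, with exact 95% binomial intervals. Right, the percentage of a subtype's reads that fell on 36 cytokine and chemokine genes, 1 point per animal; basophils, at 5.80% and 8.45%, lie to the right of all 14 other subtypes.

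Ccl3 and Ccl4 encode chemokines that attract monocytes, NK cells and T cells. Ccl3 was at 13079 and 20481 CPM on the female plates and at 27315 and 27119 CPM on the male plates. Every basophil held it, from 5314 to 47277 CPM, and 19.5% of the other cells did. The highest other subtype was NK cells in the female, at 438.9 CPM, and Mac IV in the male, at 686 CPM, which basophils exceeded 40.7-fold and 39.7-fold. Ccl4 was at 6863 and 11897 CPM on the female plates and at 21153 and 25557 CPM on the male plates, in 50 of 53 cells, against 301.1 CPM in NK cells of the female and 448.7 CPM in Mac IV of the male. For both genes the male plates lay above the female plates, and the first female plate, from the other run, was the lowest. Ccl9, a ligand of Ccr1, was even across animals at 11923 and 12090 CPM and was found in 51 cells, and the highest other subtype was DC II in the female, at 3438 CPM, and Mac III in the male, at 1406 CPM. Ccl6, a related mouse chemokine, was at 5163 and 9728 CPM in 50 cells and was the exception in the group, since Mac III was higher at 13072 and 16291 CPM. The other 14 chemokines of the list were sparse or absent: Cxcl2 was at 31.1 and 110.9 CPM in 4 cells, and Ccl2, Ccl7, Ccl11, Ccl22, Ccl24, Cxcl1 and Cxcl10 had no read in any basophil.

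Among the cytokines, Il6, Osm, Csf1 and Il4 were each found in most basophils. Il6, the fever and acute-phase cytokine that also acts on macrophages and epithelium, was at 4367 and 2345 CPM on the female plates and at 6135 and 3927 CPM on the male plates, in 50 cells. Mast cells, next highest, were at 198.1 and 30.1 CPM, and 2.67% of all other cells held it. Oncostatin M (Osm), a relative of interleukin 6, was at 8023 and 5061 CPM in 52 cells, and the highest other subtype was neutrophils in the female, at 1586 CPM, and mast cells in the male, at 1249 CPM. Csf1, the growth factor that macrophages need to survive, was at 1108 and 857 CPM in 51 cells, and neutrophils, next, were at 104.2 and 146.2 CPM. Hgf, the hepatocyte growth factor that acts on epithelium through Met, was at 379.9 and 366.3 CPM in 41 cells and was 11.2-fold and 13.02-fold above the highest other subtype in the female and the male. These Hgf values overlapped between the plates of the 2 animals, from 332.7 to 395.3 CPM.

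Il4, the type 2 cytokine for which basophils are best known, was not particular to them at this level. It was at 490 and 979 CPM in 44 basophils, and mast cells were at 487 and 703 CPM. The log2 fold change against mast cells was 0.53 ± 2.16 (SE), adjusted p = 1.0 by the quasi-likelihood test of edgeR. Il13, the other type 2 cytokine, was at 28.3 and 79.6 CPM in 11 basophils, below mast cells at 55.8 and 141.4 CPM. Tnf was found in 4 cells, and Il1b in 3 cells of the female, at 152.4 and 0 CPM. Csf2, Csf3, Il11, Il18 and Ifng had no read, and Il5, Il1a and Il10 had 1 read each, over all 53 cells. Areg and Tgfb1 stayed under 10 CPM in both animals.

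The mediators were held together in single cells. Of 53 basophils, 32 held all 6 of Ccl3, Osm, Il6, Csf1, Hgf and Il4, 16 held 5, 4 held 4 and 1 held 3. Among 1125 other cells none held more than 4, and 8 held 4. The 6 genes were picked because they are high in basophils, so the contrast is a description.

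**Figure D2:**
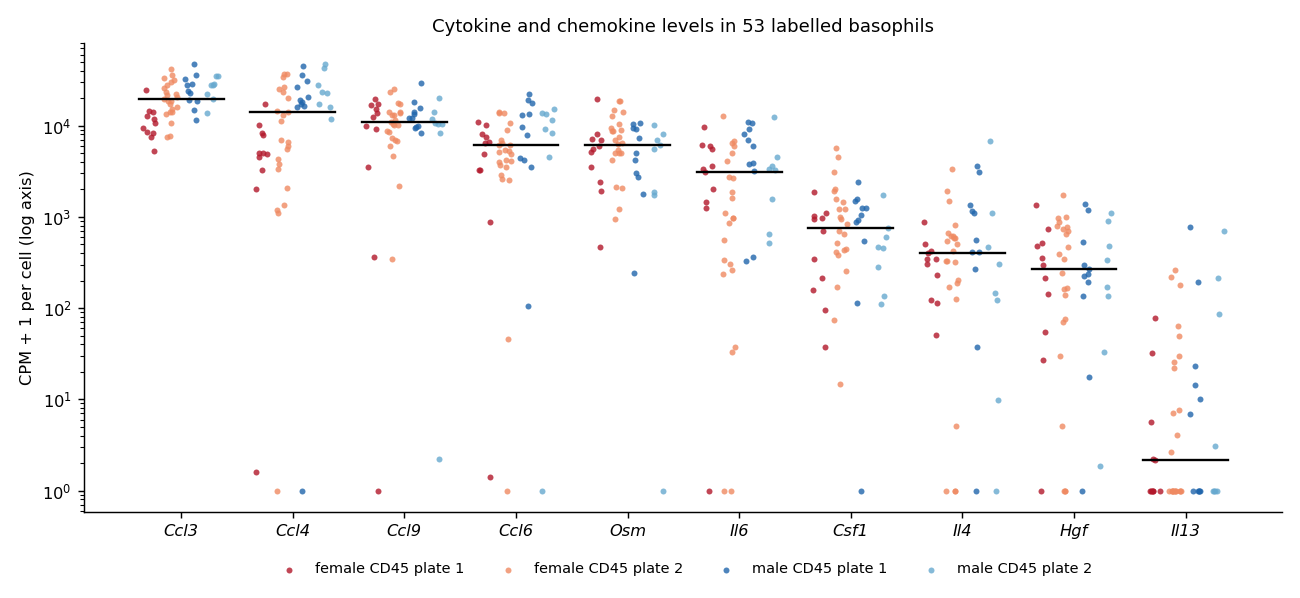
CPM + 1 on a log axis of 10 cytokine, growth factor and chemokine genes in each of 53 basophils, coloured by plate, with the median over cells as a black line. Ccl3 lies between 5314 and 47277 CPM in every cell, while Il4 and Hgf are at or near 0 in some cells and Il13 in most.

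Granule genes divided into a part shared with mast cells and a part that was not. Mcpt8, the granule protease by which mouse basophils are commonly marked, was at 6076 and 4056 CPM on the female plates and at 10674 and 9825 CPM on the male plates, in 50 cells. Mast cells were at 21.7 and 94.4 CPM, and 0.267% of other cells held the gene. Basophils were 220-fold higher than the highest other subtype in the female and 108.9-fold in the male. Hdc, which makes histamine, was at 7995 and 11133 CPM in all 53 cells, and mast cells were at 6046 and 6607 CPM. Serglycin (Srgn), the proteoglycan that packs granule contents, was likewise at 4280 and 5735 CPM against 7170 and 6413 CPM. Cpa3, a carboxypeptidase of mast cell granules, was at 744 and 495 CPM in 37 basophils, far below mast cells at 29021 and 19032 CPM. The chymases and tryptases of mast cells (Mcpt4, Cma1, Tpsb2 and Tpsab1) had 0 or 1 read each over all basophils.

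Prss34, another serine protease of basophil granules, was unevenly spread. It was found in 22 of 53 cells, at 286.4 to 69841 CPM there, and the other 31 cells had no read of it. The positive cells were 7 of 11 and 7 of 23 on the female plates and 5 of 11 and 3 of 8 on the male plates, so both kinds of cell occurred on every plate. A single cell gave 33.6% of all its reads. Summed levels were 5045 and 2785 CPM on the female plates and 3003 and 14393 CPM on the male plates, which overlapped. Mast cells followed at 644 and 989 CPM.

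All pairs of 28 genes were compared across the 53 cells by Spearman's rho, which ran from -0.52 to 0.77 with a median of 0.01. The points share plates and a sort, and rho of single genes with depth was between -0.27 and 0.25. Prss34 and Mcpt8 were the pair most alike, at 0.77, with 0.83 and 0.59 on the female plates and 0.86 and 0.79 on the male plates. Ccl3 and Ccl4 were next at 0.65, with values between 0.36 and 0.61 on the plates. At the other end stood Ccl3 with Alox5 at -0.52 and Ccl6 with Ccl9 at -0.50. By plate the rho of Ccl6 with Ccl9 ran from -0.87 on the first male plate to -0.02 on the second. Csf1 ran opposite to both granule proteases, at -0.45 with Mcpt8 and with Prss34, and its rho with Mcpt8 was negative on all 4 plates, from -0.48 to -0.43. Egr1, an immediate early gene, ran opposite to Prss34 at -0.47 and Mcpt8 at -0.43 over all cells, but less evenly by plate. With Prss34 its rho was -0.79 and -0.03 on the female plates and -0.76 and -0.68 on the male plates. With Mcpt8 it was -0.66 and -0.20 on the female plates and -0.67 and -0.45 on the male plates. Il1rl1, the interleukin 33 receptor, went with Csf1 at 0.42.

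**Figure D3:**
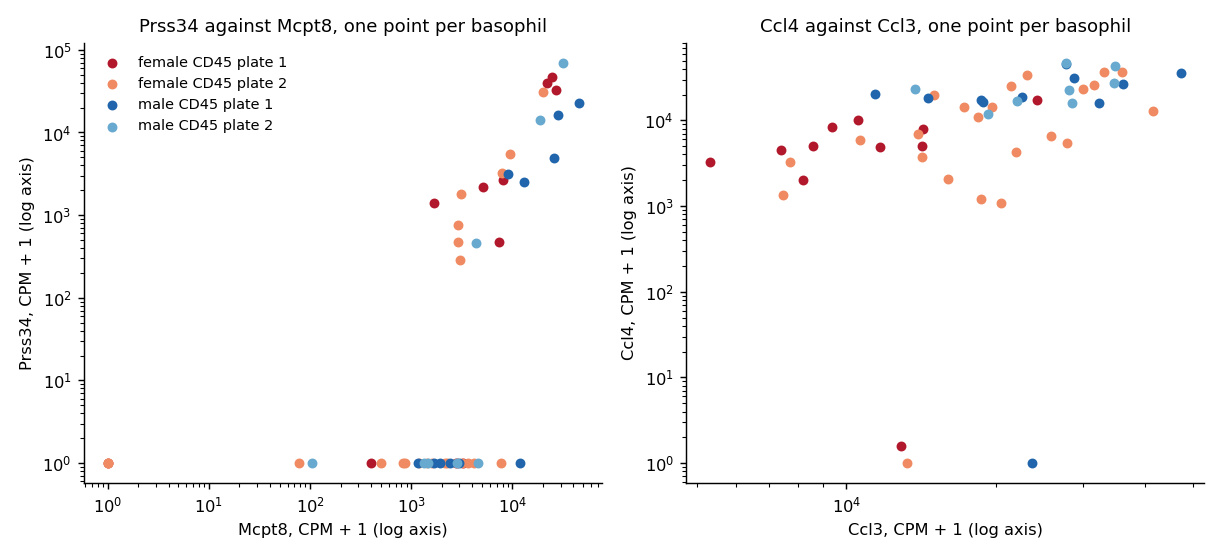
CPM + 1 on log axes, 1 point per basophil, coloured by plate: Prss34 against Mcpt8 on the left and Ccl4 against Ccl3 on the right. The row of points at the foot of the left panel is the 31 cells with no Prss34 read, and the 22 others rise with Mcpt8 (rho 0.77 over all cells).

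The chains of the receptor for IgE were present in basophils and in mast cells. Fcer1a, its IgE-binding chain, was at 829 and 1291 CPM in 37 basophils and at 592 and 211.3 CPM in mast cells. Ms4a2, its beta chain, was at 801 and 459 CPM in 51 basophils and at 311.6 and 196.9 CPM in mast cells. The gamma chain Fcer1g, which many Fc receptors use, was at 1764 and 2500 CPM and was higher in Mac V at 3391 and 3968 CPM. Against mast cells none of the 16 genes of the receptor and its signalling passed the test, where 0.724% of all genes tested were called higher and 0.987% lower, so that a count of 0 is near the background. Against mast cell II, the smaller mast cell class of the labels, 4 of 16 were called higher in basophils (Fcer1a, Ms4a2, Fcer1g and Lat2) and none lower, where 1.96% of all genes were called higher and 1.46% lower.

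Among cytokine receptors, messages for chains of the interleukin 3 family and interleukin 18 receptors were present in basophils, and a response to these cytokines was not tested. Csf2rb, the signalling chain shared by the receptors for interleukin 3, interleukin 5 and GM-CSF, was at 1919 and 2086 CPM in all 53 cells, and the highest other subtype was DC III in the female, at 1135 CPM, and Mac III in the male, at 557 CPM. Il3ra, the chain that binds interleukin 3, was at 82.9 and 118.2 CPM in 23 cells. The 2 chains of the interleukin 18 receptor, Il18r1 and Il18rap, were at 278.4 and 537 CPM and at 749 and 402 CPM, both highest in basophils. Il1rl1 was at 263.99 and 86.6 CPM in 27 cells, below mast cells at 779 and 866 CPM. Crlf2, the receptor chain for thymic stromal lymphopoietin, was at 32.3 and 47.9 CPM in 12 cells. Kit, the stem cell factor receptor that marks mast cells, had 9 reads in all, and Il5ra had 1.

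Surface and homing genes followed. Cd200r3, an activating member of the Cd200 receptor family found on basophils and mast cells, was at 2115 and 2001 CPM in 50 cells, against 989 and 974 CPM in mast cells. Itga2, the integrin chain CD49b used to sort basophils, was at 325.3 and 439 CPM in 36 cells, and its lowest plate was the first female one at 58.7 CPM. Cd69, an early activation marker, was at 1957 and 858 CPM, with both female plates above both male plates. Cxcr2 and C5ar1, receptors for neutrophil-attracting chemokines and for the complement fragment C5a, were at 436 and 350.5 CPM and at 652 and 558 CPM, and neutrophils were higher in both. Ptgdr2, the prostaglandin D2 receptor CRTH2, had no read. Gata2 was at 2942 and 3049 CPM in all 53 cells, with mast cells next at 2074 and 1878 CPM. Mitf, which directs mast cell genes, and Cebpe, which directs late granulocyte genes, had no read in basophils.

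**Figure D4:**
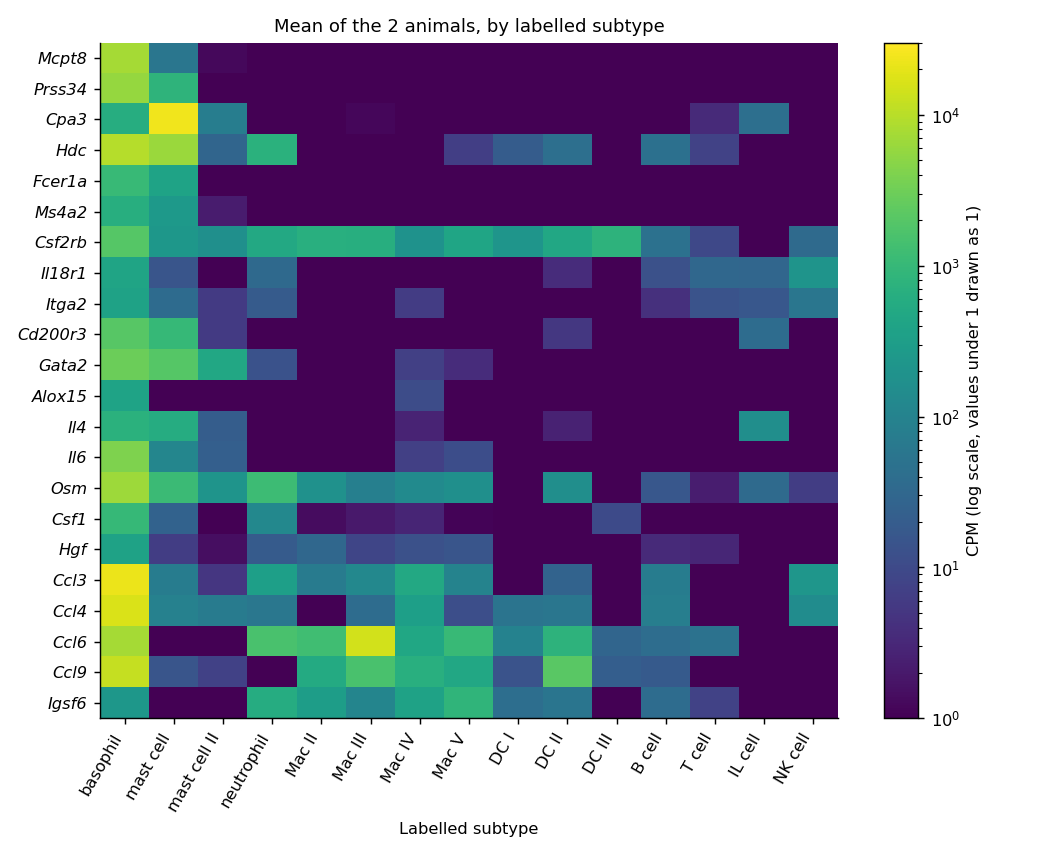
Mean CPM of the 2 animals on a log colour scale for 22 genes (rows) in basophils and 14 other labelled subtypes (columns). Mcpt8, Alox15, Csf1, Hgf, Il6, Ccl3 and Ccl4 are brightest in the basophil column alone, whereas Hdc, Gata2, Cd200r3, Il4 and the IgE receptor chains are also present in mast cells, and Ccl6 is brighter in Mac III.

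The promoters of 4 genes are shown because they represent the granule pair that varied together, the IgE receptor and the cytokine Il6. Each run is the 250 bases before the RefSeq start on GRCm38.p6, read along the gene's strand, with matches on either strand in capitals. Searched were AGATAA, the motif of GATA factors, and the kappaB motif, read as GGGA and CC with any 4 bases between.
Mcpt8, chr14:56085198-56085447, minus strand: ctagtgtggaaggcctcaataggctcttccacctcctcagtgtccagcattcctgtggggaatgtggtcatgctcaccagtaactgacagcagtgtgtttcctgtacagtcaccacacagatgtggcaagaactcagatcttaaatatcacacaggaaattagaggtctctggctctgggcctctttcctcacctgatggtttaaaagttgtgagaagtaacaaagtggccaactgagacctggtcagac
Prss34, chr17:25298144-25298393, plus strand: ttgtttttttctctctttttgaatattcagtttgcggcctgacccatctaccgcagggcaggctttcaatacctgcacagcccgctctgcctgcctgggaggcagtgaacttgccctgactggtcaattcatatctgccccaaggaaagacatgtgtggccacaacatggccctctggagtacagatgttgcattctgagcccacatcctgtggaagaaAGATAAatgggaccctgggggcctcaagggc
Ms4a2, chr19:11623720-11623969, minus strand: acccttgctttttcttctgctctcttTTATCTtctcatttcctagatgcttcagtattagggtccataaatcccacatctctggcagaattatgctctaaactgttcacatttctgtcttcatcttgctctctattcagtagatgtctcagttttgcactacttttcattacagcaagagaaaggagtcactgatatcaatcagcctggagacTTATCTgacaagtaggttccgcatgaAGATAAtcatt
Il6, chr5:30012864-30013113, plus strand: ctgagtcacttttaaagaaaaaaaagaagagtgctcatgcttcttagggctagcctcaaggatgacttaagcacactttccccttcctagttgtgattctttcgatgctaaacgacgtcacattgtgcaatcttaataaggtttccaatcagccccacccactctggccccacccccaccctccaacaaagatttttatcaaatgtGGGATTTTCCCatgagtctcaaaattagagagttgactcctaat
Prss34 has 1 GATA match, whose first base is 31 bases before the start, and Ms4a2 has 3, the nearest at 11 bases. Il6 has 2 overlapping kappaB matches that read the same stretch on both strands, 44 bases before the start. Mcpt8 has neither in this window. Of all 32851 RefSeq promoters of this length 9.99% hold the GATA motif and 17.6% the kappaB motif. Among the 20 genes with the largest ratio of basophils to the highest other subtype, 16 had a RefSeq entry, with 18 promoters, of which 4 held the GATA motif and 6 the kappaB motif. A match in these letters is not evidence of binding.

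Lipid mediator genes were led by the lipoxygenases. Alox15, which oxidises arachidonic acid at a different carbon from 5-lipoxygenase, was at 870 and 380.9 CPM on the female plates and at 336.6 and 117.5 CPM on the male plates, in 36 cells. Only 0.178% of other cells held it, and the next subtype, Mac IV, was at 15.02 and 7.10 CPM. Alox8, another lipoxygenase, was at 280.4 and 287.96 CPM in 20 cells, with mast cells next at 19.5 and 1.56 CPM. Alox5ap, the partner of 5-lipoxygenase in leukotriene synthesis, was at 4177 and 6537 CPM in all 53 cells, and Alox5 itself at 837 and 213.998 CPM in 43. The enzymes that finish leukotriene C4 and prostaglandin D2, Ltc4s and Hpgds, had 0 and 3 reads. Ptgs2, the inducible cyclooxygenase, was at 409 and 380.2 CPM in 25 cells, and at 262.3 CPM as the mean of the animals within the shared run.

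The remaining lists gave a mixed picture. Among immediate early and NF-kappaB feedback genes, Ier3 was at 3840 and 5987 CPM, the highest level of the 15 subtypes in both animals. Nfkbia, an inhibitor of NF-kappaB, was at 2660 and 5492 CPM, highest in the male only, while Fos, at 5072 and 2399 CPM, was higher in neutrophils at 6956 and 6459 CPM. How much of such a signal was set by dissociation and sorting was not tested. Of 10 antigen presentation genes none was held by more than 5 basophils. H2-Aa, H2-Eb1, Cd74, Ciita, Cd80 and Cd40 were under 3 CPM in both animals. H2-Ab1 was at 33.3 and 0 CPM in 3 cells, H2-DMb1 at 0.0202 and 21.2 CPM and H2-DMa at 0 and 9.86 CPM in 1 cell each, and the costimulator Cd86 at 56.2 and 19.9 CPM in 5 cells. In oxidant handling, Hmox1, Mt1 and Mt2, which are induced by oxidant or metal stress, had no read in basophils, and Cybb, the catalytic subunit of the phagocyte oxidase, had 2, while Sod1, at 1158 and 2050 CPM, was found in every cell. In glycolysis Hk2, a hexokinase, was highest in basophils at 313.3 and 430 CPM, with the highest other subtype at 109.02 CPM in the female (DC II) and 112.4 CPM in the male (Mac II). Of 10 cell cycle genes 8 were under 20 CPM as the mean of the animals, and Top2a and Cdk1 had 1 and 0 reads. The others were Tyms, at 193.8 and 31.2 CPM, and Mki67, at 45.6 and 8.84 CPM.

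Genes outside these lists were ranked by the ratio of basophils to the highest of the 14 other subtypes. Of 2089 genes at 50 CPM or more in the basophils of both animals, 60 were higher in basophils than in every other subtype in both by more than 2-fold, 15 by more than 5-fold and 9 by more than 10-fold. After Mcpt8, Ccl3, Ccl4 and Alox15 came Grm6, a metabotropic glutamate receptor best known from the retina, at 137.8 and 84.8 CPM in 27 cells, 104.6-fold and 25.1-fold above the highest other subtype of each animal. Csrp3, a muscle LIM protein, was at 115.9 and 139.9 CPM in 17 cells, 20.3-fold and 12.5-fold above the highest other subtype of each animal. Adora2b, an adenosine receptor, was at 562 and 512 CPM in 33 cells and at 40.1 and 62.3 CPM in Mac V. Wdr95 was at 374.6 and 730 CPM in 35 cells, and Dnase2b, an acid DNase, at 142.96 and 108.7 CPM in 26. The list went on with Ccr3, Aqp3, Mboat1, Itga2, 1110028F11Rik and Mpc2, at ratios of 4.12 to 6.92 in the animal with the lower one. Ccr3 rested on 10 cells and its level was 72.4 CPM within the shared run against 120.2 over all plates.

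Tests between labelled classes were made on reads summed per animal and subtype, 30 libraries in all, with the quasi-likelihood test of edgeR over 15600 genes. The subtype labels were probably drawn from the expression of the very cells tested, so a call describes how the labelled classes differ and is no independent evidence for them. The common biological coefficient of variation was 1.15, and with 2 animals a group large differences can miss the threshold of an adjusted p of 0.05.

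Against each of the 14 other subtypes at once, 1 gene was called higher in basophils (0.00641% of the genes tested) and 25 were called lower (0.16%). At an unadjusted p under 0.05 in all 14 comparisons 32 genes were higher. With DESeq2 in place of edgeR 14 were called, and without the male basophils, or within the shared run, none. The 1 gene was Mpc2, a subunit of the mitochondrial pyruvate carrier, at 932 and 1398 CPM in 52 cells, with the highest other subtype at 226.4 and 290.3 CPM (largest adjusted p over the 14 comparisons 0.0195). Another 9 genes were called in 13 of the 14, and for 8 of them the missing comparison was with mast cells: Mcpt8, Prss34, Fcer1a, Ms4a2, Alox8, Tnfaip8, H3f3b and Cyp11a1. For the remaining one, Alox15, it was with Mac IV (adjusted p = 0.0612). Tnfaip8, H3f3b and Cyp11a1 were named after their values were seen. Cyp11a1, the enzyme that begins steroid synthesis from cholesterol, was at 3060 and 2756 CPM in basophils and at 4175 and 2687 CPM in mast cells. Of the 25 lower genes 16 had no read in any basophil and the others had at most 12, among them Top2a and Cks1b of the cell cycle, Prdx4, a peroxiredoxin of the endoplasmic reticulum, and Ramp1, a subunit of the receptor for the neuropeptide CGRP.

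Against mast cells, 0.724% of the genes tested were called higher in basophils and 0.987% lower, and 2591 passed an unadjusted p under 0.05. Ccl6 had 2 reads in mast cells against 5163 and 9728 CPM, and Ccr2 had 1 read against 1243 and 841 CPM (adjusted p = 6.64e-05 and 5.29e-06). Igsf6, Perp, Cd300lb, Palm and Id1 had no read in mast cells. With that count set to 3 reads, Igsf6 was 6922-fold higher in basophils (adjusted p = 3.37e-05), a fold that allows for counting of reads only. Cd7, a surface protein of lymphoid cells, had 1 mast cell read against 445 and 729 CPM. Lower in basophils were the mast cell proteases named above and Ccl2 and Ccl7, monocyte attractants that had no basophil read and were at 1452 and 1780 CPM and at 620 and 247.6 CPM in mast cells. Slc45a3 and Gpr141b had no basophil read either, against 949 and 395 CPM and 795 and 216.6 CPM. Perp, Palm, Id1 and Ccl2 lost their call whenever any 1 of the 4 libraries was left out, and Cd300lb, Cd7, Cma1, Slc45a3, Tpsab1 and Gpr141b did in at least 1 of those 4 fits. Palm was also lost with the animal as a block (adjusted p = 0.0588), and Tpsab1 and Ccl7 with DESeq2. Mcpt8 itself, at a log2 fold change of 7.24 ± 1.71 (SE), missed the threshold at adjusted p = 0.0586, as did Ccl3 at 8.42 ± 2.87 (0.148) and Il6 at 5.38 ± 2.24 (0.241).

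By list, of 23 tested chemoattractant receptor and adhesion genes 7 were higher, among them Ccr2, Itgb1 and Selplg, and 1 lower (Itga4), with a median log2 fold change of 3.59, against -0.15 over all genes. As ratios of summed CPM, with counts under 3 set to 3, the medians were 3.43 and -0.42. Genes with 3 or fewer reads in both groups were left out of these, which kept 22 and 13334 genes. Itgb1, an integrin chain, was 2.86 ± 0.56 higher on the log2 scale and Selplg, a glycoprotein used in rolling adhesion, 2.19 ± 0.42 (adjusted p = 0.00918 and 0.00752). Of 14 granule genes 4 were lower and none was higher, and their median was -6.91, or -4.79 with the same limit. Of 26 immediate early genes 2 were higher (Btg2 and Nfkbia) and 1 lower (Dusp2), around a median of 0.10. Of 22 oxidant-handling genes Prdx6 and Cyba were higher and Hmox1 and Mt1 lower. Mt1 was at 479 and 278.4 CPM in mast cells.

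Against mast cell II, 1.96% of the genes tested were called higher in basophils and 1.46% lower, with 3253 at an unadjusted p under 0.05. Prss34, Fcer1a, Adora2b, Alox5, Il18r1, Alox15 and Dok3 had no read in its 22 cells. With that count set to 3 reads, Prss34 was 52719-fold and Fcer1a 10279-fold higher in basophils. These folds allow for counting of reads only, not for positive cells that were not sampled. Both genes were called by edgeR (adjusted p = 2.41e-05 and 0.00047) but not by DESeq2 (adjusted p = 0.0624 and 0.120). Gstm5 lost its call whenever any 1 of the 4 libraries was left out, and Adora2b, Alox5, Il18r1, Smim5 and Cdca8 did in at least 1 of those 4 fits. Of 26 immediate early and feedback genes 9 were higher in basophils and 1 lower, with a median of 2.80 against 0 over all genes. As ratios with the limit of 3 counts the medians were 1.73 for the list and -1.02 over the 12892 genes kept. Tnfaip3, an inhibitor of NF-kappaB, was at 557 and 265.6 CPM against 8.16 and 5.56 CPM (log2 fold change 6.86 ± 1.19, adjusted p = 0.00185). Of 17 paired and inhibitory receptors 7 were higher and none lower. Of 10 cell cycle genes 5 were lower in basophils (Top2a, Cdk1, Birc5, Cenpf and Ccna2). Outside that list, the cell cycle genes Cks1b, Ccnb2 and Cdca8 had no basophil read, as had Ramp1, Mt1, Lyar, Gstm5 and Smim5.

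Against neutrophils, 1.06% of the genes tested were called higher in basophils and 1.89% lower, with 3090 at an unadjusted p under 0.05. Cd200r3, Fcer1a, Il4, Ms4a2 and Cd7 had no read in neutrophils, and Mcpt8, Prss34 and Il6 had 1 each. Il6 was called at adjusted p = 0.0121, and Il4 at 0.0367, a call that was lost with the animal as a block (adjusted p = 0.0513), within the shared run (0.0570) and whenever any 1 of the 4 libraries was left out. Cd200r3, Il6, BC100530, Stfa1, Stfa2 and Stfa2l1 lost theirs in at least 1 of those 4 fits, and DESeq2 did not call Mcpt8, Fcer1a, Prss34, Retnlg, Stfa2l1 and Stfa3 (adjusted p = 0.0595 to 0.104). Of 14 tested basophil markers 8 were higher and none lower. As 6 of the 14 were proposed with the cells themselves, that count is a description. Lower in basophils were genes of neutrophil granules and cytosol: Retnlg and Camp had no basophil read, S100a8 had 2, and the stefins Stfa1, Stfa2, Stfa2l1 and Stfa3 and the stefin-like BC100530 had 0 or 1. These stefins are near-identical genes, and how reads were divided among them is not known. Of 22 oxidant-handling genes 1 was higher (Gclc) and 4 lower (Hmox1, Slc7a11, Mt1 and Cybb). Gata2, at 2942 and 3049 CPM against 4.46 and 22.7 CPM, was 7.77 ± 1.91 higher on the log2 scale (adjusted p = 0.0367).

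**Figure D5:**
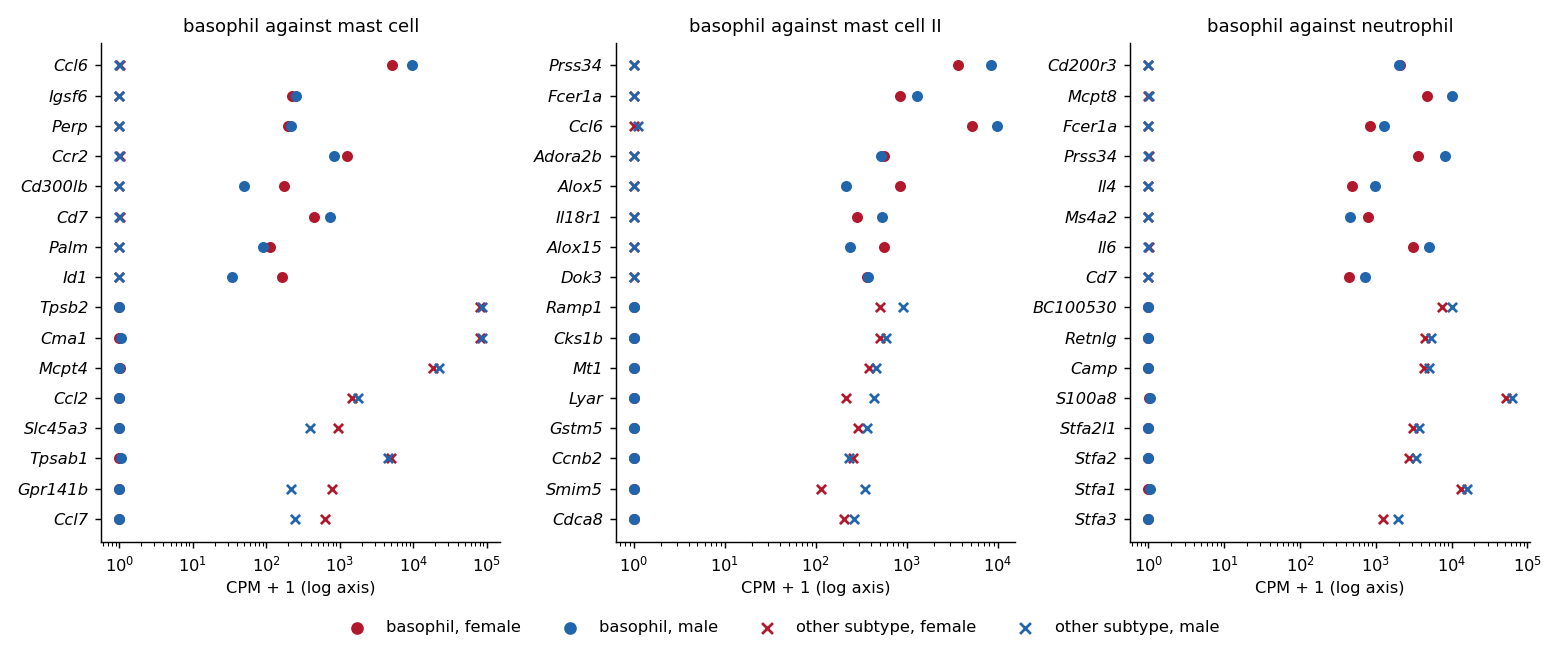
CPM + 1 on a log axis for the 8 genes per direction with the largest fold change in each comparison, with circles for basophils and crosses for the compared subtype, red for the female and blue for the male. Genes had to be called and to differ the same way in both animals. By that choice both circles lie on one side of both crosses in each of the 48 rows. The lower pair, in genes ranked by fold change, is at or near 0 reads.

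Between the animals no test was possible, and plates were compared instead. Of 3776 genes at 50 CPM or more in either animal, 1063 (28.2%) were higher on both female plates than on both male plates and 609 (16.1%) the other way round. The 10 genes with the largest difference rested on few cells. Xist, the RNA of the inactive X chromosome, was found in 13 basophils and at 301.95 and 0.0508 CPM, and the Y-linked Ddx3y in 4 at 0.0202 and 60.03 CPM. The other 8 were held by 1 to 3 cells each: Hbb-bt, G0s2 and Il1b in the female and Ldb2, Clstn1, Hjurp, Bach1 and Acy1 in the male, and Hbb-bt came from the cell with globin reads. Among 718 genes found in at least 27 cells, 27.6% were higher on both female plates and 22.1% on both male plates, and 9 by 4-fold or more, all higher in the female. Chosen after their values were seen, these were Arhgap9, Lbr, Actr3, Gsn, Serp1, Cers2, Hnrnpk, Pdia3 and Hspa8, the first at 456 and 64.3 CPM. All 9 were higher on the first female plate, from the other run, than on the second. The gap was small for Arhgap9, at 460.9 and 453.5 CPM, and large for Pdia3, at 789.8 and 178.6 CPM.

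Of 88 list genes found in as many cells, 31 were higher on both female plates, 20 on both male plates and 37 on neither. Beside the 27.6% and 22.1% of all genes found in as many cells, nothing is read from these counts for the lists. Of 4 chemokines Ccl3, Ccl4 and Ccl6 were higher on both male plates and Ccl9 on neither side. Of 4 granule genes Mcpt8, Hdc and Srgn were higher on both male plates and Cpa3 on both female plates (1.501-fold). The 6 genes on the male side differed by 1.34-fold to 2.30-fold. Of 4 cytokines Il4 was higher on the male side, Osm on the female side, and Il6 and Csf1 on neither. Il4 was at 291.97 and 599 CPM on the female plates and at 878 and 1096 CPM on the male plates. Among the other genes on the female side were Alox5 (3.91-fold), Alox15 (2.36-fold), Ccr1 (3.37-fold), Cd69 (2.28-fold), Itgb2 (3.99-fold) and Il1rl1 (3.05-fold). On the first and second female plates Alox5 was at 1451 and 498.6 CPM and Itgb2 at 532 and 583.8 CPM. The male cells were fewer and shallower, and the first female plate alone came from the other run. Animal, sex, cell number, depth and, in part, sequencing run move together here. Their part in these differences cannot be told apart.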

How the data were processed

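Single immune cells of 2 mice were sorted into plates, and per the labels each cell was sequenced on its own. The authors deposited a table of raw read counts per gene and cell (18072 genes, 60 without a read). It holds 0 symbols that begin with Rpl, Rps or mt-. Depth, CPM and shares of reads count only the genes in the table. STAR 2.5.2b and HTSeq 0.10 are listed in the submitters' processing notes, with no role given, beside the build GRCh38, a human build name; the mouse build is not given in the sources used here. How reads shared by near-identical genes were divided, and whether counting used strand, is not given either.

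Cells were taken from the deposited subtype label, and no doublet caller was run because cells lay in single wells. Counts were summed per animal and subtype (30 libraries of 6024430 to 235567000 reads, Mac I with 1 cell left out) and tested with edgeR 4.0.16 in R 4.3.3: TMM scaling, its default filter on low counts, the quasi-likelihood test and Benjamini-Hochberg adjustment at 0.05 over 15600 genes. Each group is 2 animals. The spread behind a p-value was estimated from all 15 subtypes of these same 2 animals, not from the compared groups alone. It was also partly shared across genes. A fold against a count of 0 sets that count to 3 reads over the group. It allows for counting of reads, not for positive cells that were not sampled. Each cell was also thinned to 100000 reads with a fixed seed, and 5 other cells were too shallow. Shares have exact Clopper-Pearson 95% intervals. Libraries of the same animal pair across subtypes, from the animal named in the labels. The test was also run on simulated counts with known fold changes. These were drawn with a smaller spread than that of the data, so that run does not measure how reliable the calls are. Python 3.11.15, numpy 2.4.6, scipy 1.17.1 and pandas 2.3.3 were used. Promoters came from RefSeq on GRCm38.p6.

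Named were list genes at 20 CPM or more in basophils, or defining genes below it; the 20 genes with the largest ratio to the highest other subtype; the 8 genes per direction with the largest fold change in each comparison, at 50 CPM or more in the higher subtype; and the 10 genes with the largest difference between the animals. The cells and lists were chosen with earlier results of these data known. Alternatives were DESeq2 1.42.0, RLE size factors, no filter, the animal as a block, equal weight per cell, 1 sequencing run, a fit of 4 subtypes and leaving out each library. Leaving out the cell with globin reads was added after seeing the data.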

Additional observations from a re-analysis of the deposited data

How the results depend on the processing

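With the replicate block, which pairs the libraries of each animal, 1.71% of genes were called against mast cells (1.71% without it), 3.81% against mast cell II (3.41%) and 3.04% against neutrophils (2.95%), and 2 genes in place of 1 were higher than in each of the 14 other subtypes. Of the 48 named calls 46 held with the block, and the lost ones were Palm against mast cells and Il4 against neutrophils.

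Within the shared sequencing run the share of genes called was 0.641% against mast cells, 1.54% against mast cell II and 1.36% against neutrophils, and 0 genes were called against all 14, where 23 passed at an unadjusted p under 0.05 in edgeR. With only 4 subtypes in the fit the share was 1.08% against mast cells and 2.21% against neutrophils, and 55.7% of the calls against mast cells and 75.3% of those against mast cell II were higher in basophils, compared with 42.3% and 57.3% with all subtypes. DESeq2 called 17.5% of genes against mast cells (28.9% of them higher), 22.3% against mast cell II (39.8% higher), 20.3% against neutrophils and 14 genes against all 14. Leaving out 1 library gave 0.587 to 1.04% against mast cells, 1.24 to 1.99% against mast cell II, 0.880 to 2.66% against neutrophils and 0 to 1 gene against all 14, and the lone library is then assumed to vary like the other groups. The lowest values came without the male basophils against mast cells (0.587%) and neutrophils (0.880%) and without the male mast cell II library (1.24%). The cause was not tested. RLE size factors moved the median log2 fold change of all genes from -0.15 to -0.27 against mast cells and from -0.36 to -0.46 against neutrophils.

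Of the 48 named calls 26 held in all 7 alternatives, 25 in every fit without 1 library and 6 in none of those fits, and none reversed. DESeq2 lost 10 and the shared run 11. Among 41 named levels, 10 moved beyond the spread between animals as a mean over cells and 10 within the shared run. Among these 1110028F11Rik was at 208.1 CPM as a mean over cells. With 2 animals and 8 to 23 basophils per plate, levels of genes found in few cells are the least certain.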
